A study of Mus musculus with 9 samples.

Results

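The genes described here encode the collagens and other core proteins of the extracellular matrix, the network of secreted proteins around muscle fibres. A list of 38 genes was followed: fibril-forming collagens, basement membrane proteins, collagens of finer filaments and networks, elastic fibre proteins, adhesive glycoproteins, small proteoglycans, crosslinking and folding proteins, and proteases with their inhibitors. The list names the genes and uses no measured value, but it was drawn up with earlier results of these data known. Each gene was read by the probe set (a group of short probes for one transcript) with the highest mean over the 9 arrays. Of the 38 genes, 36 had a probe set that names the gene alone, among 18193 such genes on the array. Fbn1 and Loxl2 had none in the annotation used and were not analysed here. Thbs1 and Timp1 did not exceed a log2 value of 5 in at least 3 arrays, so 34 matrix genes were tested among 9697 genes in all.

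Quadriceps femoris, a thigh muscle, was profiled in 9 female mice, in 3 groups of 3 animals. All were of a C57Bl/6 line labelled HT transgenic, in which skeletal muscle starts to express a self MHC class I transgene once doxycycline is withdrawn. MHC class I molecules sit on the cell surface and present fragments of intracellular proteins to T cells. In the early group doxycycline ended at 21 days of age, and muscle was taken at 35 days of age, 2 weeks later. In the late group it ended at 35 days and muscle was taken at 50 days, by the labels. The control group stayed on doxycycline until muscle was taken at 35 days. The protocol describes controls as littermates with a single transgene, whereas the strain label is the same in all groups, so whether the controls differed in genotype is not settled. The promoter that drives the transgene is not given in the sources used here. Early mice matched the controls in age. Late mice were older than both other groups, so age and induction cannot be told apart in either comparison that includes them. The question posed by the design is how young and adult muscle differ in their response to the transgene.

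Muscle matrix is made mainly by fibroblasts and fibro-adipogenic progenitors that lie between the fibres, and in part by the fibres, vessels and tendon cells. Fibrillar collagen chains are folded in the endoplasmic reticulum with the help of the chaperone Serpinh1, secreted, trimmed, assembled into fibrils and then crosslinked by lysyl oxidases. Each fibre is also wrapped in a basement membrane of laminin and type IV collagen, and type VI collagen filaments tie it to the fibrils outside.

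Values are log2 expression, so that a difference of 1 is a doubling. They are given as mean ± SD (n = 3) or as fitted log2 difference ± SE, with p-values from limma adjusted by the Benjamini-Hochberg method over all 9697 genes. The induced gene H2-K1 lay between 10.21 and 10.88 in controls, between 14.64 and 14.69 in early mice and between 13.11 and 14.31 in late mice. Early 3 was therefore as high in H2-K1 as early 1 and 2. Acta1, Ckm and Myh4, markers of skeletal muscle fibres, were high in every array. Myh7, the myosin of slow fibres, ran from 2.78 to 13.37, with a wide spread in every group, and its part in the results was not tested. RNA was taken from whole muscle, so fewer cells of a type and less RNA per cell cannot be told apart. Replicates are separate animals by the design text, and p-values measure only the spread between these samples.

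Induced arrays differed among themselves in the matrix genes. Early 3 lay below the control mean in 34 of 34 genes tested, whereas early 1 lay above it in 18 and early 2 in 19. It was the lowest of the early arrays in 29 of 34 genes, against 40.1% of all genes, with a median gap of -0.51 to the other early arrays. In the late group, late 1 was the lowest in 23 of 34 genes, against 40.3% of all genes, with a median gap of -0.50. Among controls, control 1 was the highest in 28 of 34 genes, against 49.6% of all genes, with a smaller median gap of 0.29. The 3' minus 5' signal of the control probes, a sign of RNA degradation, lay between -0.06 and 0.07 for actin and between -0.18 and 0.02 for Gapdh, and late 1 was the highest array in both. Its part in the results was not tested. Where leaving out early 3 or late 1 changed a difference much, the value without that array is also given. Both arrays were singled out after their values in these genes were seen, so p-values without them are descriptive only.

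**Figure D1:**
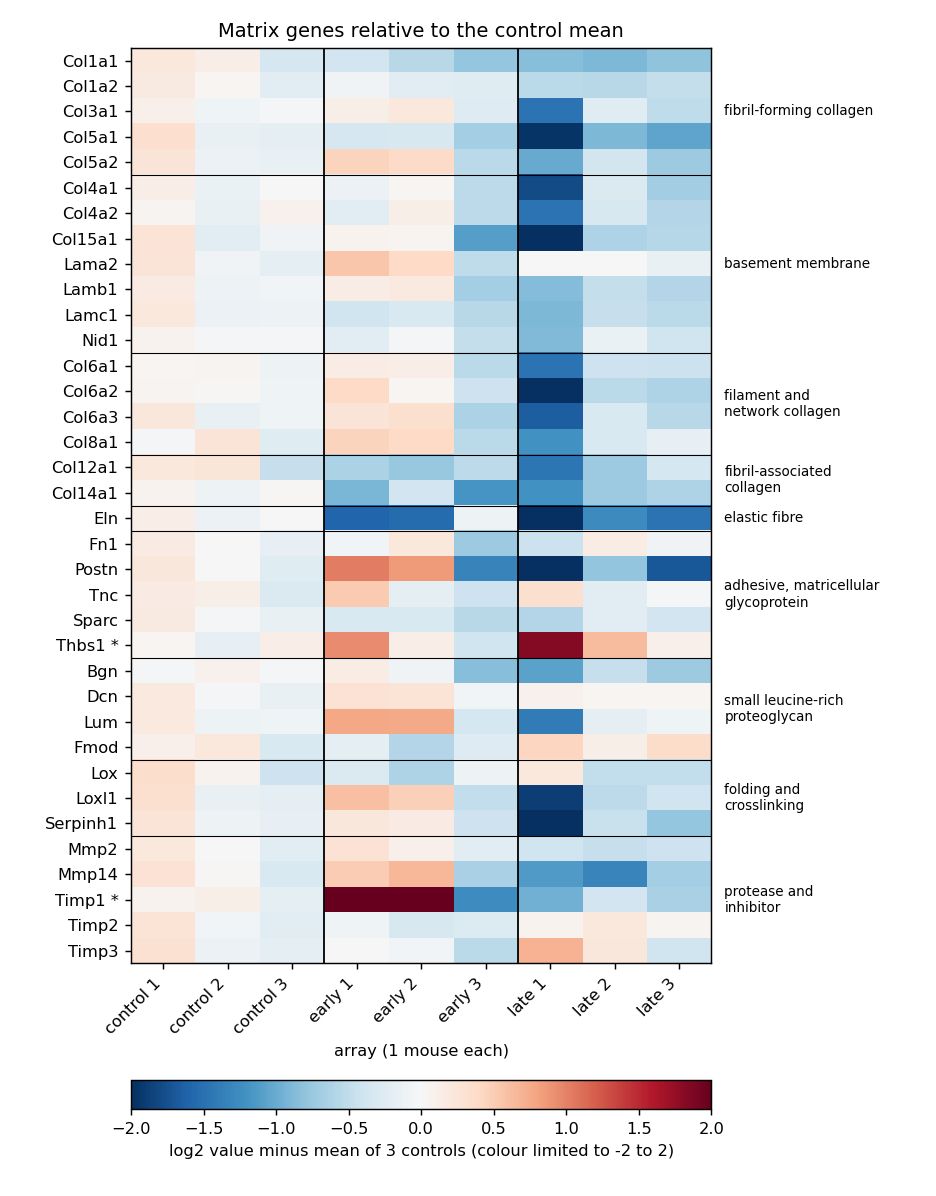
Heat map of 36 matrix genes (rows, grouped by role) in 9 arrays (columns), as log2 value minus the mean of the 3 controls, with colours limited to -2 and 2. The asterisks mark Thbs1 and Timp1, which were under the threshold on low values. Early 3 is blue in every gene tested, unlike early 1 and 2, and late 1 is the darkest late column in most collagens.

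Late mice had lower matrix values than controls in most genes. The fitted difference was below 0 in 29 of 34 genes, against 48.8% of all genes, and its median was -0.72 (1.65-fold lower), against 0.01 over all genes. The late and control arrays did not overlap in 23 of 34 genes, all lower in late mice. Of all genes, 14.9% were apart and lower and 16% apart and higher. None of the 34 passed the adjusted threshold, where 0.206% of all genes did. At an unadjusted p under 0.05 the count was 22 lower and 0 higher, against 8.44% of all genes lower. This count fell to 7, 11 and 14 without control 1, 2 and 3 and to 10 without late 1. The median difference was -0.47 without late 1.

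Early mice showed no such common direction. The median difference was -0.18, against -0.03 over all genes, with 23 of 34 genes below 0 against 54.1% of all genes. The count called by the adjusted p was 0 of 34 genes, against 1.19% of all genes, and 5 genes were lower and 0 higher at an unadjusted p under 0.05, where 9.89% of all genes were lower. Early and control arrays were apart in 6 genes, all lower, where 13.9% of all genes were lower and 9.63% higher. These were Col1a1, Col5a1, Lamc1, Col12a1, Col14a1 and Sparc. These values mix unlike arrays. Early 1 and 2 exceeded all controls in 15 and 14 genes and lay under all controls in 9 and 11, whereas early 3 exceeded them in 0 and lay under them in 29. Without early 3 the median turned to 0.07, and the arrays were apart in 11 genes higher and 7 lower, where 25.8% of all genes were higher and 27.5% lower.

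Early and late mice were also compared directly. The median of early minus late was 0.51, against -0.03 over all genes, and the adjusted p called 0 of 34 genes, against 11.5% of all genes. At an unadjusted p under 0.05, 11 genes were higher in early mice, against 15.8% of all genes, and 1 was lower, against 18.4%. Early and late arrays were apart in 7 genes higher in early mice, where 13.7% of all genes were, and in 2 lower, where 18.3% were. Without early 3 the adjusted p called 13 genes, of which 12 were higher in early mice and 1 lower, where 30.5% of all genes were called. These were Postn, Mmp14, Lamb1, Bgn, Loxl1, Col5a1, Col5a2, Col6a3, Col8a1, Lum, Mmp2, Lama2 and, lower, Fmod. Without late 1 limma called 0 of the 34 (5 higher and 1 lower at an unadjusted p under 0.05), where 3.03% of all genes were called. Without early 1 and without early 2 limma also called 0, where 2.21% and 1.65% of all genes were called. At an unadjusted p under 0.05, 2 were higher and 2 lower without early 1, and 2 higher and 1 lower without early 2. The early and late comparisons with controls share the same 3 control arrays.

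**Figure D2:**
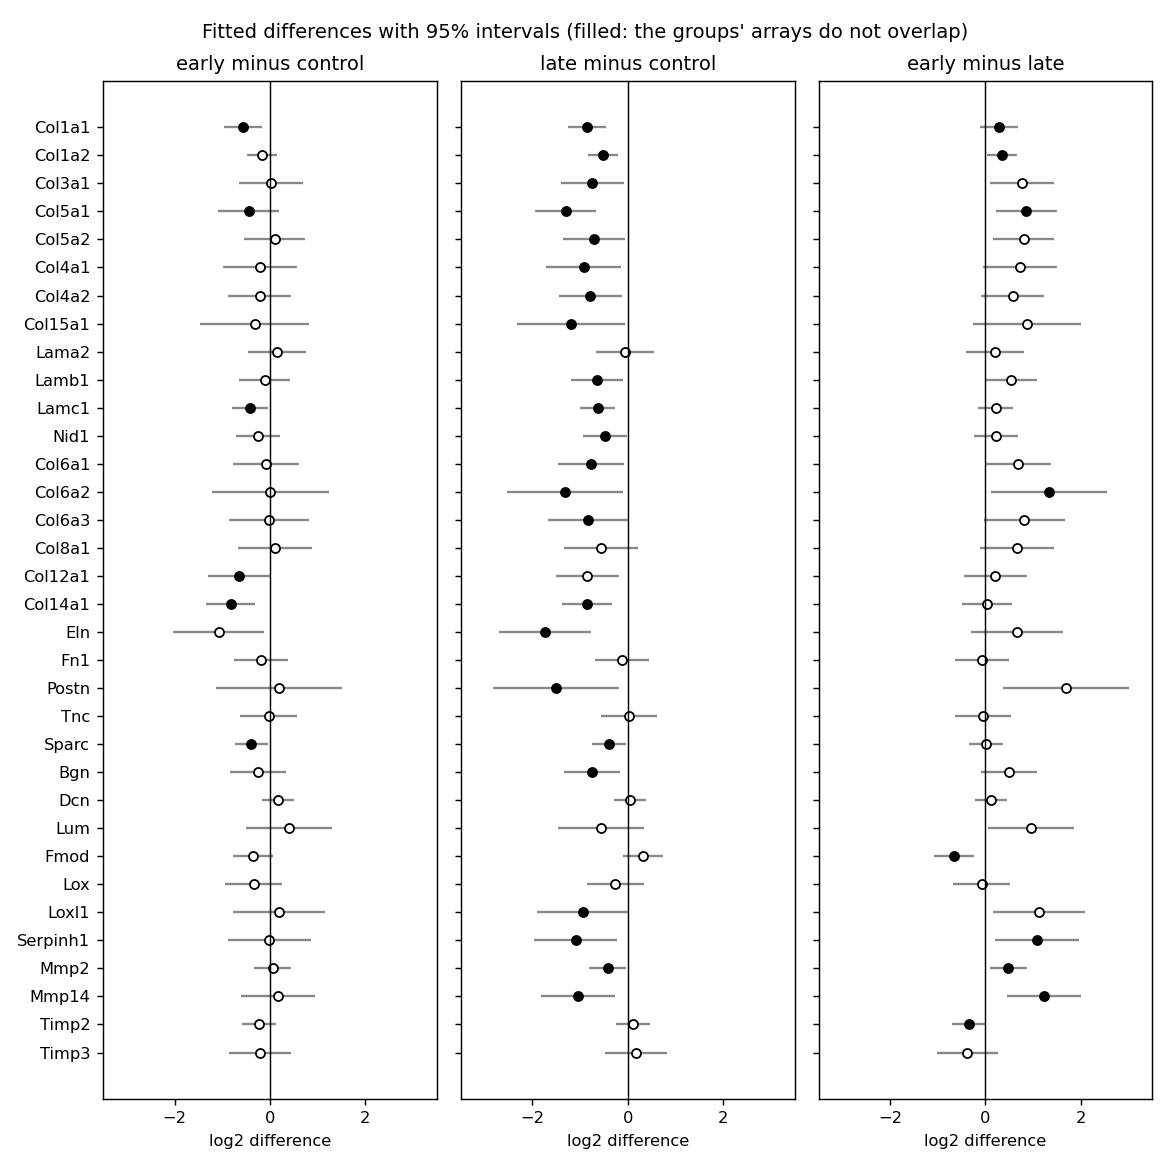
Fitted log2 differences of the 34 genes tested (points) with 95% intervals (lines) for early minus control, late minus control and early minus late, where filled points mark genes whose arrays do not overlap between the groups. The late panel holds 23 filled points, all left of 0, the early panel 6 and the early minus late panel 9, on both sides of 0.

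The fibril-forming collagens were the most uniform group in late mice: 5 of 5 lay below all controls, with a median difference of -0.74. In limma 0 of 5 passed the adjusted threshold and 5 of 5 had an unadjusted p under 0.05. Col1a1 encodes the main chain of type I collagen, the bulk protein of tendon and connective tissue. Its values were 14.39, 14.32 and 13.85 in controls, 13.81, 13.63 and 13.41 in early mice and 13.33, 13.29 and 13.38 in late mice. Each early array lay below the lowest control and each late array below the lowest early array, so the groups stood in order without overlap on this probe set. On the second Col1a1 probe set, with -0.69 in early and -0.79 in late mice, the groups overlapped: early 1 (11.89) lay above control 2 (11.69). Col1a1 was 1.81-fold lower in late mice than in controls (-0.85 ± 0.18, adjusted p = 0.0942) and 1.49-fold lower in early mice (-0.57 ± 0.18, adjusted p = 0.163). Early and late differed by 0.28 ± 0.18 (adjusted p = 0.278). Col1a1 did not share the gap of late 1, which lay between late 2 and late 3.

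Col5a1, a chain of type V collagen, which nucleates type I fibrils, had the largest late difference of these chains on the probe sets chosen. It was 11.39, 10.92 and 10.88 in controls, 10.72, 10.74 and 10.39 in early mice and 9.11, 10.16 and 10.01 in late mice. The early arrays lay between the controls and the late arrays, and late 1 was the lowest of all. Late mice were 2.47-fold below controls (-1.30 ± 0.28, adjusted p = 0.0965), and the difference was -0.98 ± 0.20 without late 1 (adjusted p = 0.139). Early exceeded late mice by 0.86 ± 0.28 (adjusted p = 0.0758), a difference that passed without early 3 (0.97 ± 0.31, adjusted p = 0.0488) and was 0.53 ± 0.20 without late 1 (adjusted p = 0.134). Col1a2, the partner chain of Col1a1, was nearly level within the late group, at 13.62, 13.61 and 13.69, against 13.95 to 14.34 in controls (-0.52 ± 0.14). Col3a1, the chain of type III collagen, and Col5a2 differed by -0.74 ± 0.29 and -0.70 ± 0.28 in late mice and by 0.02 and 0.10 in early mice. Without late 1 the late difference of Col3a1 was -0.37 ± 0.18, and without early 3 the early difference of Col5a2 was 0.41 ± 0.21. A second Col3a1 probe set gave -2.07 in late mice, so the size of that difference depends on the probe set.

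The start regions of these chains are shown because all 5 genes lay on the same side of the controls in late mice. RefSeq start regions (250 bases upstream of an annotated start, GRCm38.p6) were given for 24 of the 38 genes, and 3 of the fibril-forming chains are among them. Capitals mark 4 motifs: the box CCAAT, the GC box GGGCGG, the TATA box TATAAA, and the SMAD-binding element CAGACA. Each was searched on both strands, and a match on the opposite strand appears as its reverse complement. Matches of different motifs may overlap. Col1a2 at chr6:4505368-4505617 and Col3a1 at chr1:45311288-45311537 lie on the plus strand, as does Col5a1 at chr2:27886175-27886424.
Col1a2: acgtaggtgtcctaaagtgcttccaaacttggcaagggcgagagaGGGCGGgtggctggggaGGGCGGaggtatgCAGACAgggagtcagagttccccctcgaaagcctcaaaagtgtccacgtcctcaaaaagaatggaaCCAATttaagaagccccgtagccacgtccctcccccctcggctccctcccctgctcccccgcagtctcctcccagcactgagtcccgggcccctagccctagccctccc
Col3a1: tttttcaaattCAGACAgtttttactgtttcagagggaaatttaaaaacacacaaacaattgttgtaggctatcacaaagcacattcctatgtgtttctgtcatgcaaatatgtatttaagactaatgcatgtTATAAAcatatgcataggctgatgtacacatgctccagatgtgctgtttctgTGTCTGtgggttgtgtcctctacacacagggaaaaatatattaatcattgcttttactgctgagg
Col5a1: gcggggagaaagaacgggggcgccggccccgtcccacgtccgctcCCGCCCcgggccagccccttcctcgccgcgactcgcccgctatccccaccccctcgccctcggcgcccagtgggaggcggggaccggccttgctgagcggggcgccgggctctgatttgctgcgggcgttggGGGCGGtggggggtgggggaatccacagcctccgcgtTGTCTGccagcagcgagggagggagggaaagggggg
The G and C content was 62% for Col1a2, 35.2% for Col3a1 and 76.4% for Col5a1, against a median of 52.4% over 32851 windows. Col1a2 holds CCAAT with its first base 109 bases upstream of the start, 2 GC boxes and 1 CAGACA. Col3a1 holds TATAAA 117 bases upstream, and CAGACA on both strands. Col5a1 holds 2 GC boxes and CAGACA on the opposite strand, 36 bases upstream. Over the 24 genes, GGGCGG was found in 15, CCAAT in 8, CAGACA in 7 and TATAAA in 3. Of all windows 32.7% hold GGGCGG, 33.8% CCAAT, 17.1% CAGACA and 12.4% TATAAA. Some genes have several windows, and a match describes letters, not a bound site.

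Basement membrane genes were lower in late mice in 6 of 7 cases without overlap, with a median of -0.65. In limma 0 of 7 were called and 6 of 7 had an unadjusted p under 0.05. Lamc1 encodes the gamma chain found in most laminins. It was 9.79, 9.47 and 9.48 in controls, 9.19, 9.28 and 9.03 in early mice and 8.69, 9.12 and 9.04 in late mice. All 6 induced arrays lay below the lowest control, and early and late arrays overlapped. Lamc1 differed by -0.63 ± 0.16 in late mice (adjusted p = 0.131) and by -0.42 ± 0.16 in early mice (adjusted p = 0.232). Its second probe set gave -1.34 in late mice and 0.02 in early mice.

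Lamb1, a laminin beta chain, was 10.14, 9.89 and 9.93 in controls, 10.13, 10.19 and 9.30 in early mice and 9.11, 9.50 and 9.40 in late mice. Early 1 and 2 were at the level of the controls, and early 3 was among the late values. Late mice differed from controls by -0.65 ± 0.24 (adjusted p = 0.235) and early from late mice by 0.54 ± 0.24 (adjusted p = 0.152). Without early 3, early exceeded late mice by 0.82 ± 0.16 (adjusted p = 0.00822). Lama2, the alpha chain of the laminin of muscle fibres, whose loss causes a congenital muscular dystrophy, was the exception in late mice. Its late values of 9.69 to 9.85 lay within the control range of 9.65 to 10.11 (-0.05 ± 0.27). Without early 3, Lama2 was 0.53 ± 0.17 higher in early than in late mice (adjusted p = 0.047).

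Col4a1 and Col4a2 encode the type IV collagen chains of the basement membrane network and are transcribed in opposite directions from starts 21 bases apart in the RefSeq table. Col4a1 was 13.43, 13.17 and 13.29 in controls, 13.18, 13.34 and 12.77 in early and 11.51, 13.00 and 12.60 in late mice. Col4a2 was 11.50, 11.30 and 11.53, then 11.22, 11.56 and 10.92, then 9.97, 11.13 and 10.87. In both genes early 3 was the lowest early array and late 1 the lowest of all arrays. Late mice differed by -0.93 ± 0.34 in Col4a1, or -0.50 ± 0.21 without late 1, and by -0.79 ± 0.29 in Col4a2, or -0.45 ± 0.21 without late 1. Col15a1, a collagen at the outer face of the basement membrane, differed by -1.19 ± 0.50, or -0.59 ± 0.35 without late 1, and Nid1, which links laminin to type IV collagen, by -0.47 ± 0.20, or -0.27 ± 0.17 without late 1.

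Type VI collagen forms beaded filaments next to the basement membrane, and mutations in its chains cause myopathies. Its 3 chains were measured, and all lay below all controls in late mice. Col6a2 was 12.63, 12.60 and 12.50 in controls, 12.97, 12.62 and 12.17 in early mice and 9.77, 12.04 and 11.96 in late mice. Late 1 stood at -2.24 from the mean of late 2 and 3, which were themselves below every control. Col6a2 differed by -1.32 ± 0.54 in late mice (adjusted p = 0.268) and by -0.57 ± 0.22 without late 1 (adjusted p = 0.33). Early exceeded late mice by 1.33 ± 0.54 (adjusted p = 0.121), or by 0.58 ± 0.22 without late 1 (adjusted p = 0.136), and early and control mice had nearly equal means (0.01 ± 0.54, 95% interval -1.21 to 1.23).

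Col6a1 was 12.51, 12.52 and 12.37 in controls, 12.62, 12.60 and 11.93 in early mice and 10.99, 12.05 and 12.04 in late mice. Its late arrays lay below all controls, and early 3 lay below late 2 and 3. The late difference was -0.77 ± 0.30 (adjusted p = 0.255), or -0.42 ± 0.22 without late 1. Col6a3 differed by -0.84 ± 0.37 in late mice, or by -0.43 ± 0.29 without late 1. Col8a1, a short-chain network collagen, was 7.95, 8.23 and 7.73 in controls, 8.42, 8.37 and 7.43 in early and 6.76, 7.67 and 7.80 in late mice. Late and control arrays of Col8a1 overlapped (-0.56 ± 0.34, or -0.24 ± 0.31 without late 1), and early differed from control mice by 0.10 ± 0.34 (adjusted p = 0.897). Without early 3, Col8a1 was higher in early than in late mice by 0.99 ± 0.31 (adjusted p = 0.0439), whereas without late 1 this difference was 0.34 ± 0.31. A second Col8a1 probe set, nearer the threshold of 5 on low values, gave -1.61 in late mice. Its late arrays (4.33, 4.35 and 5.43) lay below all controls (6.02 to 6.53). It gave 0.50 in early mice and 2.11 for early minus late, so the size of these differences depends on the probe set.

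The fibril-associated collagens, which coat fibrils and space them, were low in early 1 and 2 as well. Col14a1 was 9.28, 9.11 and 9.24 in controls, 8.29, 8.83 and 8.03 in early mice and 8.00, 8.48 and 8.59 in late mice. All 6 induced arrays lay below the lowest control, and the early and late groups overlapped. Col14a1 differed by -0.83 ± 0.23 in the early group (1.77-fold lower, adjusted p = 0.139) and by -0.85 ± 0.23 in the late group (1.81-fold lower, adjusted p = 0.136). The early minus late difference was 0.03, with a 95% interval of -0.49 to 0.55.

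Col12a1 was 8.61, 8.65 and 7.94 in controls, 7.76, 7.63 and 7.88 in early and 6.95, 7.67 and 8.04 in late mice. Its early arrays lay just below control 3, and late 3 lay above it. Col12a1 differed by -0.64 ± 0.29 in the early group (adjusted p = 0.28) and by -0.85 ± 0.29 in the late group (adjusted p = 0.211), and early and late mice by 0.20 ± 0.29 (adjusted p = 0.643). Without late 1 its late difference was -0.54 ± 0.24. Col12a1, Eln, Fmod and Lox were the genes in which early 3 lay above the mean of early 1 and 2.

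Eln encodes elastin, the rubber-like core of elastic fibres, and showed the largest late difference of the 34 matrix genes. It was 9.90, 9.66 and 9.76 in controls, 8.19, 8.23 and 9.67 in early mice and 7.33, 8.50 and 8.30 in late mice. Early 3 was at the control level, while early 1 and 2 lay among the late values, the reverse of the split seen in most matrix genes. Eln was 3.32-fold lower in late mice (-1.73 ± 0.42, adjusted p = 0.119) and 2.11-fold lower in early mice (-1.08 ± 0.42, adjusted p = 0.231), and neither passed. Without early 3 both passed: the early difference was -1.56 ± 0.31 (adjusted p = 0.0134) and the late difference -1.73 ± 0.28 (adjusted p = 0.0465). In that setting 18.1% of all genes were called in early against control and 0.608% in late against control. Early 3 was singled out after its values were seen. Early and late mice differed by 0.66 ± 0.42 (adjusted p = 0.298), but by 0.17 ± 0.31 without early 3 and by 0.30 ± 0.41 without late 1.

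**Figure D3:**
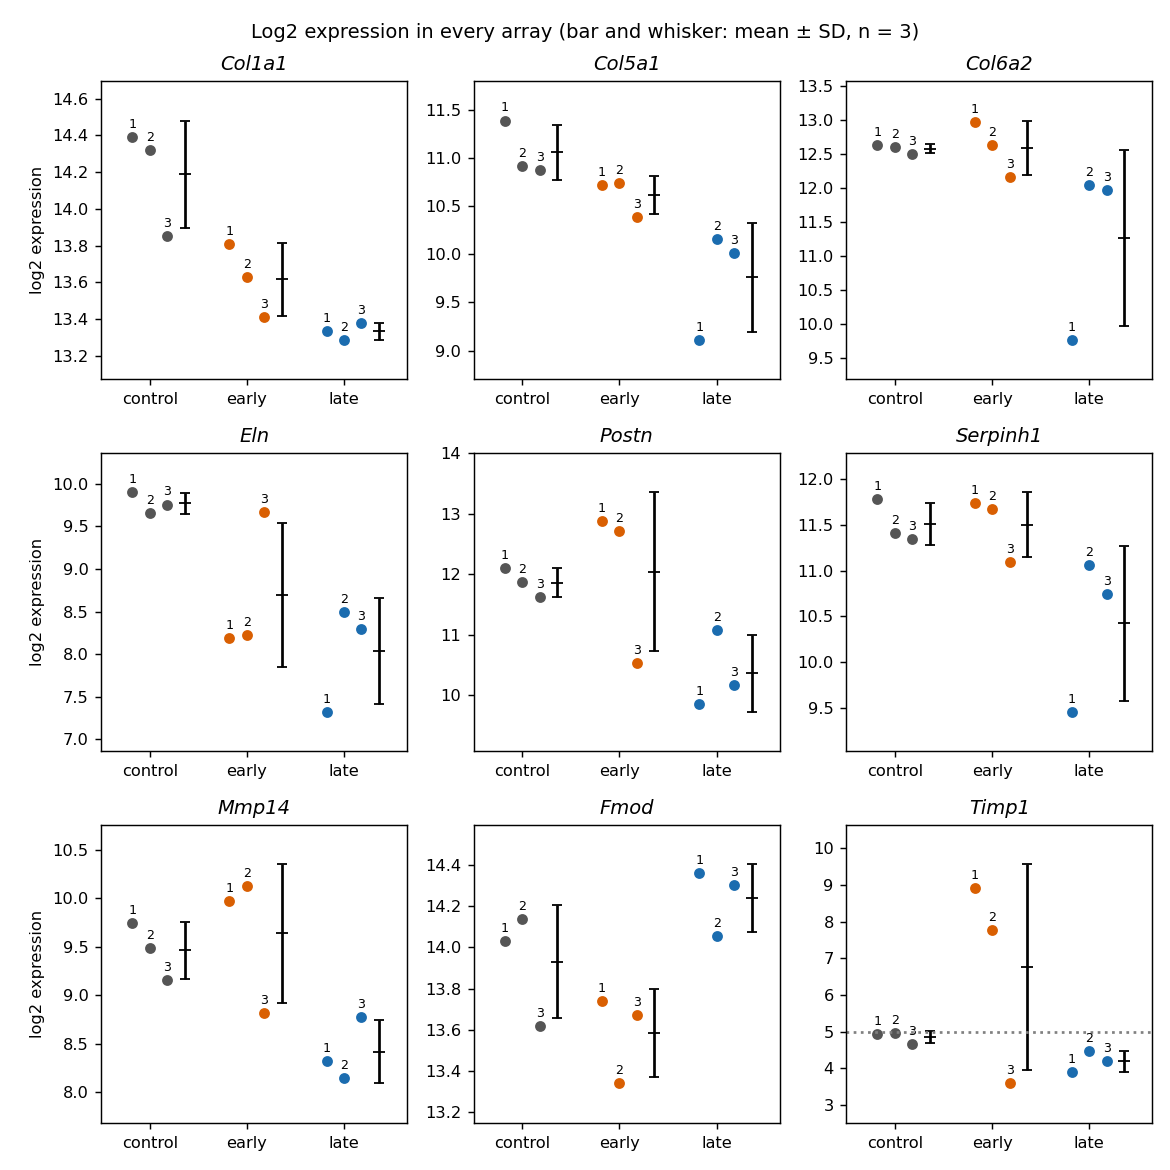
Log2 expression of 9 matrix genes in every array (points, numbered by replicate), with mean ± SD of each group (n = 3). Timp1 was under the threshold on low values, drawn as a dotted line at 5. Early 3 lies apart from early 1 and 2 in Postn, Mmp14, Timp1 and, the other way, in Eln.

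Among the adhesive and matricellular glycoproteins, which connect cells to the fibrils and modulate their growth, 2 of 4 tested genes lay below all controls in late mice. Postn encodes periostin, secreted by fibroblasts in growing and injured tissue. It was 12.10, 11.87 and 11.62 in controls, 12.88, 12.72 and 10.53 in early mice and 9.86, 11.07 and 10.16 in late mice. Early 1 and 2 were above every control, early 3 was among the late values, and the late arrays were below every control. Postn was 2.83-fold lower in late mice (-1.50 ± 0.58, adjusted p = 0.25), whereas early differed from control mice by 0.18 ± 0.58 (adjusted p = 0.891), or by 0.93 ± 0.33 without early 3 (adjusted p = 0.0921). Early exceeded late mice 3.20-fold (1.68 ± 0.58, adjusted p = 0.0863). Without early 3, which was singled out after its values were seen, this difference was 2.43 ± 0.33 (adjusted p = 0.00215).

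Sparc, a collagen-binding glycoprotein, was 14.78, 14.55 and 14.45 in controls, 14.28, 14.29 and 14.04 in early mice and 14.00, 14.38 and 14.20 in late mice. All 6 induced arrays lay below the controls, by a small margin. It differed by -0.39 ± 0.16 in the early group (adjusted p = 0.239) and by -0.40 ± 0.16 in the late group (adjusted p = 0.256), on the probe set chosen. Another abundant Sparc probe set gave -0.12 in early and -0.79 in late mice, and the remaining one, near the floor of 5, gave 0.13 and 0.04. Fn1, fibronectin, and Tnc, tenascin C, overlapped between groups in all comparisons, with differences from controls between -0.19 and 0.03. Thbs1, thrombospondin 1, was not tested. It ran from 3.92 to 4.20 in controls and reached 5.03 in early 1 and 5.91 in late 1, with the other induced arrays between 3.68 and 4.71.

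The small leucine-rich proteoglycans bind fibrils and set their diameter, and the 4 members did not share a direction. Fmod encodes fibromodulin, which is abundant in tendon and guides collagen crosslinking. It was 14.03, 14.14 and 13.62 in controls, 13.74, 13.34 and 13.67 in early mice and 14.36, 14.05 and 14.30 in late mice. Every early array lay below every late array, with the controls across both. Fmod was 1.58-fold lower in early than in late mice (-0.66 ± 0.18, adjusted p = 0.0524), just outside the threshold, and passed without early 3 (-0.70 ± 0.21, adjusted p = 0.0367). It differed from controls by -0.35 ± 0.18 in early and by 0.31 ± 0.18 in late mice. All 6 Fmod probe sets gave early minus late differences below 0, from -0.49 to -0.93.

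Bgn, biglycan, was 11.66, 11.79 and 11.67 in controls, 11.85, 11.63 and 10.86 in early and 10.64, 11.24 and 10.99 in late mice. Its late arrays lay below all controls, and early 3 lay with them. The late difference was -0.75 ± 0.26 (adjusted p = 0.217) and the early difference -0.26 ± 0.26 (adjusted p = 0.608). Early exceeded late mice by 0.49 ± 0.26 (adjusted p = 0.214), or by 0.78 ± 0.19 without early 3 (adjusted p = 0.0179). Lum, lumican, was 12.66 and 12.64 in early 1 and 2, above the control range of 11.77 to 12.08, and 11.53 in early 3. Late 1 was at 10.48 in Lum, while late 2 and 3 were at 11.69 and 11.80, close to the controls. Dcn, decorin, lay between 13.85 and 14.29 in all arrays and differed from controls by 0.17 ± 0.15 in early and 0.05 ± 0.15 in late mice. A second, much weaker Dcn probe set gave 0.83 in early and 1.15 in late mice. Its late arrays (7.08 to 7.22) lay above all controls (5.47 to 6.42), so the result for Dcn depends on the probe set.

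Proteins that fold and crosslink collagen also split. Serpinh1 encodes HSP47, the collagen-specific chaperone of the endoplasmic reticulum. It was 11.78, 11.41 and 11.35 in controls, 11.74, 11.67 and 11.09 in early mice and 9.46, 11.06 and 10.75 in late mice. The late arrays lay below all controls and all early arrays, with late 1 the lowest. Serpinh1 was 2.13-fold lower in late mice (-1.09 ± 0.38, adjusted p = 0.222), or -0.61 ± 0.24 without late 1. The early level was 2.11-fold that of late mice (1.08 ± 0.38, adjusted p = 0.0918), with a difference of 0.60 ± 0.24 without late 1, and early and control means were nearly equal (-0.01, 95% interval -0.88 to 0.86).

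Loxl1, a lysyl oxidase of elastic fibres, lay below all controls in late mice (-0.93 ± 0.42, adjusted p = 0.304), with -0.46 ± 0.33 without late 1. Early mice differed from controls by 0.20 ± 0.42, or by 0.54 ± 0.42 without early 3. Early exceeded late mice by 1.13 ± 0.42 in Loxl1 (adjusted p = 0.103), by 1.47 ± 0.42 without early 3 (adjusted p = 0.0312) and by 0.66 ± 0.33 without late 1 (adjusted p = 0.219). Lox, the founding lysyl oxidase, was 10.82, 10.54 and 10.06 in controls, 10.18, 9.85 and 10.37 in early and 10.68, 9.99 and 9.98 in late mice. The groups of Lox overlapped in all comparisons, and late 1 was the highest late array. It differed by -0.34 ± 0.26 in the early group (adjusted p = 0.503) and by -0.26 ± 0.26 in the late group (adjusted p = 0.65), the latter -0.49 ± 0.25 without late 1.

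Of the matrix proteases, Mmp14 showed the larger differences. Mmp14 is a membrane-bound protease that cleaves fibrillar collagen and activates Mmp2. It was 9.75, 9.49 and 9.15 in controls, 9.97, 10.12 and 8.82 in early mice and 8.32, 8.14 and 8.77 in late mice. Early 1 and 2 were above all controls, early 3 was below them, and each late array was below every other array. Mmp14 was 2.07-fold lower in late mice than in controls (-1.05 ± 0.34, adjusted p = 0.193). The early level was 2.33-fold that of late mice (1.22 ± 0.34, adjusted p = 0.05198), just outside the threshold, and without early 3 the difference was 1.63 ± 0.23 (adjusted p = 0.00257). Its other probe sets gave 1.91 and 1.79. Their late values, 4.54 to 5.95 and 4.57 to 4.94, lay near the threshold of 5 on low values, so the size is uncertain there. Mmp2, a gelatinase, was 10.94, 10.88 and 10.93 in late mice and 11.12 to 11.55 in controls (-0.42 ± 0.17, adjusted p = 0.26).

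The tissue inhibitors of metalloproteinases did not follow the proteases. Timp2 was 12.55, 12.22 and 12.07 in controls, 12.20, 11.96 and 12.01 in early mice and 12.35, 12.50 and 12.34 in late mice. Early arrays lay below late arrays, and controls overlapped both. Timp2 differed by -0.23 ± 0.16 in early mice (adjusted p = 0.446), by 0.11 ± 0.16 in the late group (adjusted p = 0.744) and by -0.34 ± 0.16 between early and late mice (adjusted p = 0.158). Its 5 passing probe sets disagreed in sign, as did those of Timp3, which differed by -0.20 ± 0.28 in early and 0.18 ± 0.28 in late mice. Timp1, an inhibitor induced in injured tissue, was under the threshold on low values and was not tested. Its values, described after they were seen, were 4.93, 4.97 and 4.66 in controls, 8.92, 7.77 and 3.59 in early mice and 3.89, 4.47 and 4.21 in late mice. Early 1 and 2 thus exceeded every other array in Timp1, and early 3 was the lowest of all.

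The start region of Postn is shown because its gap between early 3 and the other early arrays, -2.26, was the widest of the 34 genes. RefSeq gives 2 Postn windows, and the second, at chr3:54360857-54361106 on the plus strand, holds TATAAA with its first base 26 bases upstream of the start.
Postn: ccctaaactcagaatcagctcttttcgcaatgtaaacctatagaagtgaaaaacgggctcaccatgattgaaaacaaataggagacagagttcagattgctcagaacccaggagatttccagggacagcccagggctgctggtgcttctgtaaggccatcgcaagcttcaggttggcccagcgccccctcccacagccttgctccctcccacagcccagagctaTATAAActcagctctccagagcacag
The other Postn window, at chr3:54359017-54359266, holds none of the 4 motifs. Of the genes with a window, Col3a1 and Tnc also hold TATAAA.

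The agreement of probe sets was examined for the 23 genes tested that had several above the threshold on low values. All probe sets of a gene gave the same sign in 20 genes in late against control, in 14 in early against control and in 19 in early against late. In the late comparison the exceptions were Sparc, Timp2 and Timp3. In the early comparison they were Col3a1, Col5a2, Col6a2, Lamc1, Nid1, Serpinh1, Sparc, Timp2 and Timp3. In early against late they were Dcn, Lox, Timp2 and Timp3.

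Other matrix genes were examined through lists of the same pathway. The 11 other collagen chains tested had medians of -0.63 in early and -0.59 in late mice. In early mice 0 were called, and 5 were lower and 1 higher at an unadjusted p under 0.05 in limma. Of all genes, 9.89% were lower in early mice at that threshold. In late mice 1 of the 11 chains was called, and it was lower. That gene, Col16a1, fell by 1.03 ± 0.15 in late mice (adjusted p = 0.0482) and was 0.59 ± 0.15 higher in early than in late mice (adjusted p = 0.0407). Col11a1, a chain of cartilage and tendon fibrils, differed by -1.61 ± 0.34 in early mice (adjusted p = 0.0685). Of 57 other glycoproteins and proteoglycans, 1 fell in early mice, Ccn3 (-1.28 ± 0.16, adjusted p = 0.00913), a matricellular growth modulator. In late mice 1 fell and 1 rose: Cthrc1, made by collagen-producing fibroblasts, was 6.35-fold lower (-2.67 ± 0.25, adjusted p = 0.00446), and Prelp, a basement membrane proteoglycan, 3.13-fold higher (1.65 ± 0.22, adjusted p = 0.0359). Early against late, 4 of 57 were higher and 5 lower, where 11.5% of all genes were called, among them Mfap2, a microfibril protein (2.35 ± 0.34, adjusted p = 0.0108), and Prelp (-1.78 ± 0.22, adjusted p = 0.00578).

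Of 25 procollagen processing enzymes, 1 rose in early mice. This was P4hb, the disulfide isomerase that is also a subunit of prolyl hydroxylase (0.90 ± 0.16, adjusted p = 0.0394). In late mice 0 of 25 were called, with a median of -0.30. At an unadjusted p under 0.05 in limma 7 were lower and 1 higher, where 8.44% of all genes were lower. Early against late, 3 of 25 were higher and 0 lower, where 11.5% of all genes were called: P4hb (0.76 ± 0.16), Ppib, the prolyl isomerase of procollagen (1.33 ± 0.30, adjusted p = 0.0328), and Fkbp14 (0.83 ± 0.21, adjusted p = 0.0428). Of 20 genes of the TGF-beta pathway, a main inducer of collagen genes, 0 were called against controls. At an unadjusted p under 0.05, 1 was higher and 3 lower in early mice, and 4 were higher and 1 lower in late mice. At that threshold 9.89% of all genes were lower in early and 8.44% in late mice. Early against late, 5 of 20 were lower and 0 higher, where 11.5% of all genes were called. These were Ski and Skil, which restrain SMAD proteins (-0.75 ± 0.16 and -0.85 ± 0.20), the inhibitory Smad6 (-1.17 ± 0.29), the signal-transducing Smad3 (-1.06 ± 0.27) and Ccn2, a TGF-beta target (-2.50 ± 0.68). Of 15 other matrix proteases and inhibitors and 23 matrix receptors, 0 were called in any comparison. In each comparison 1 to 5 of each list had an unadjusted p under 0.05 in limma. Early against late, 15.8% of all genes were higher and 18.4% lower at that threshold.

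Markers of the cells that can make matrix were read in the same arrays. Of 21 fibroblast and fibro-adipogenic progenitor markers, 0 were called against controls, with medians of -0.27 in early and -0.12 in late mice. At an unadjusted p under 0.05, where 9.89% of all genes were lower in early mice, 4 markers were lower and 0 higher in early mice. In late mice, where 8.44% of all genes were lower, 4 markers were lower and 2 higher. Their summed level, on the log2 scale, was 15.75 to 15.79 in controls, 15.51 to 15.63 in early and 15.53 to 15.93 in late mice, and the summed level of the 34 matrix genes was 17.44 to 17.75, 17.17 to 17.62 and 16.90 to 17.30. The fibroblast median over the control mean was -0.49 in early 3, against -0.27 and -0.18 in early 1 and 2, and -0.31, -0.12 and -0.14 in late 1, 2 and 3. The matrix median was -0.53 in early 3, against 0.10 and 0.05 in early 1 and 2, and -1.10, -0.44 and -0.50 in late 1, 2 and 3. By the median, early 3 was thus the lowest array in fibroblast markers and late 1 the lowest in matrix genes. By the summed level, late 1 was again the lowest in matrix genes, but early 1 (15.51) was the lowest in fibroblast markers, with early 3 at 15.58. Early against late, limma called 3 of the 21 fibroblast markers lower in early mice, Gfpt2, Scara5 and Smoc2, and 0 higher. Of all genes, 11.5% were called in that comparison.

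Medians of the 14 macrophage markers tested, against the control mean, were 0.91, 0.43 and -0.31 in early 1, 2 and 3. In late 1, 2 and 3 they were -0.87, 0.09 and -0.06, and in control 1, 2 and 3 they were 0.35, -0.19 and -0.16. Early 3 and late 1, low in matrix genes, were below all controls here. Late 2 and 3, with matrix medians of -0.44 and -0.50, were within the control range. The summed level of the macrophage markers was 12.89 to 13.28 in controls, 12.72 to 14.58 in early and 12.71 to 13.16 in late mice. Against controls 0 of 14 were called, with 1 higher in early and 1 lower in late mice at an unadjusted p under 0.05. Skeletal muscle fibre markers were close to the control mean in every array, with medians from -0.11 to 0.08 over 17 genes, 0 called and 0 at an unadjusted p under 0.05. Tenocyte markers (5 tested) had medians of -0.69 in early and -0.01 in late mice, and adipocyte markers (7 tested) of -0.98 and -0.56. Endothelial markers (12 tested) had medians of -0.25 and -0.001, smooth muscle and pericyte markers (11 tested) of -0.32 and -0.09, and Schwann cell markers (4 tested) of -0.82 and -0.17, and 0 of these were called against controls. In early mice 2 tenocyte, 3 adipocyte and 1 endothelial markers were lower at an unadjusted p under 0.05 in limma. So were 4 smooth muscle and pericyte and 3 Schwann cell markers, and 0 in these lists were higher. In late mice 1 tenocyte, 1 adipocyte and 4 endothelial markers were lower, and 1 tenocyte and 1 smooth muscle and pericyte marker higher. Of all genes, 9.89% were lower in early and 8.44% in late mice at that threshold. Early against late, 1 of 14 macrophage markers was called higher in early mice (C1qa). Lower were 1 of 7 adipocyte (Lpl), 1 of 11 smooth muscle and pericyte (Myh11) and 1 of 4 Schwann cell markers (Mbp). Of tenocyte and endothelial markers 0 were called, where 11.5% of all genes were. The part of all these cell types in the matrix values was not tested.

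**Figure D4:**
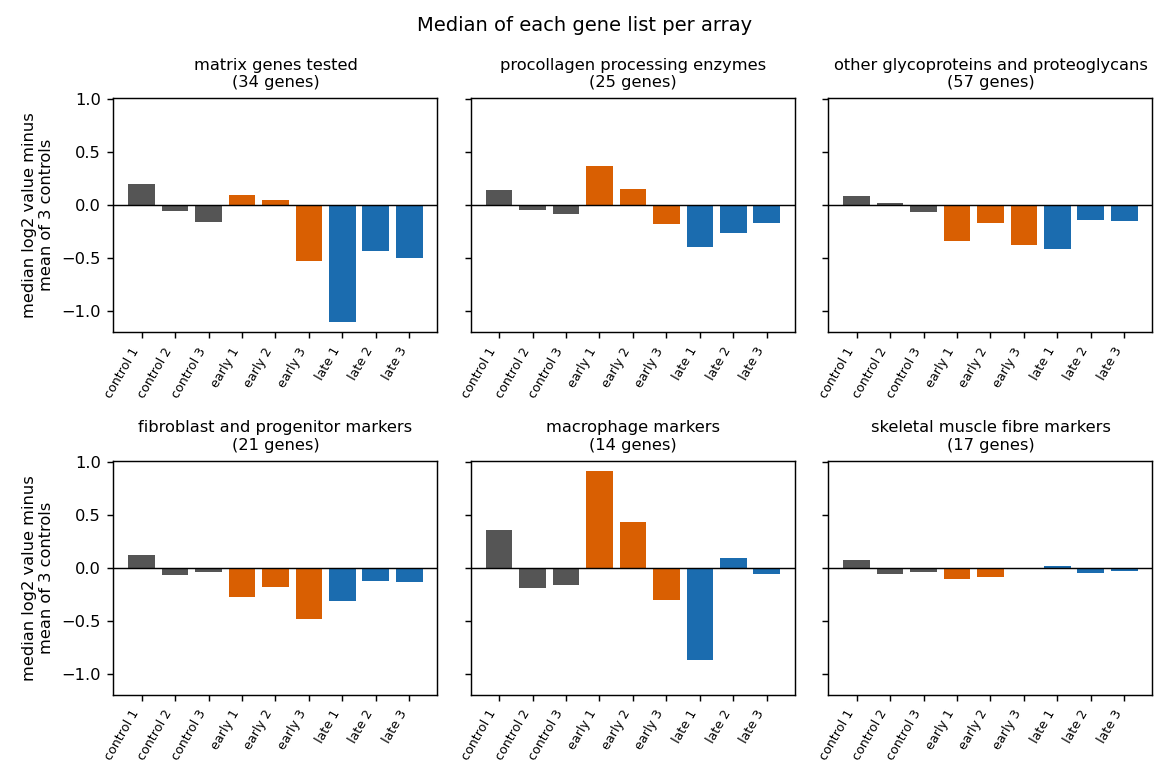
Median log2 value minus the mean of the 3 controls for 6 gene lists in each array (bars; grey controls, orange early, blue late). The matrix genes are lowest in late 1 (-1.10) and lie at -0.53 in early 3, whereas muscle fibre markers stay between -0.11 and 0.08.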

How the data were processed

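Total RNA of 9 quadriceps muscles was reverse transcribed from oligo(dT) and turned into biotin-labelled cRNA for 1-colour Affymetrix arrays, per the labels' protocols. The authors deposited log2 values made with GCRMA, per the submitters' processing notes, whose version is not given there. GCRMA corrects background by probe base composition and makes the arrays' distributions alike, so it can hide a change shared by all genes. Of 45101 probe sets, 34958 named 1 gene in the platform annotation, and the 932 naming several and 9211 naming none were left out.

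Probe sets above a log2 value of 5 in at least 3 arrays were kept, and the one with the highest mean was taken per gene. One model of 3 group means was fitted to all 9 arrays with limma 3.58.1 in R 4.3.3 (6 residual and 2.84 prior degrees of freedom), and genes were called at an adjusted p under 0.05 (Benjamini-Hochberg, 9697 genes). The smallest p of an exact test with 3 arrays in each group is 0.1, so none was run. The number of arrays limits the precision. The fit was tested on simulated data.

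The genes and lists were chosen with earlier results of these data known. Any listed matrix gene could be named. Array values are given for the gene with the smallest p in each role and comparison, and from each other list up to 3 genes with the smallest p could be named. Col4a1, Col4a2, Timp1, Thbs1, Smad3, Ccn2 and the split of early 3 were singled out after their values were seen. The labels name no batch. Deviations of same-numbered early and late arrays correlated across genes at 0.168, 0.201 and 0.16. Those of early and control arrays (0.35, 0.11 and -0.0391) and of late and control arrays (0.0847, -0.165 and -0.11) did not all exceed 0.1. No label states that the replicate numbers pair arrays. Arrays of different numbers were not compared, so whether the arrays are paired is not settled. Alternatives were no or another filter, median centring, 2-group fits, array weights, an intensity trend, other probe sets, the replicate block and leaving out arrays.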

Additional observations from a re-analysis of the deposited data

Results flagged for a closer look

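Fmod lay below the control mean in every early array and above it in every late array. The direct comparison of early and late mice gave -0.66 ± 0.18 in Fmod, which did not pass the test (limma, adjusted p = 0.0524).

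Timp2 showed the same pattern with a smaller difference of -0.34 ± 0.16 (limma, adjusted p = 0.158), which did not pass, and its probe sets disagreed in sign.

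Timp1 and Thbs1 lay outside the tests because too few arrays exceeded a log2 value of 5. Timp1 nevertheless reached 8.92 in early 1, against 4.66 to 4.97 in controls. Thbs1 reached 5.91 in late 1, against 3.92 to 4.20 in controls.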

How the results depend on the processing

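The number of matrix genes called was 0 in each comparison with all arrays. Against controls, array weights raised it to 8 in early mice (3 higher, 5 lower; 34.4% of all genes called) and to 10 in late mice (all lower; 10.7%). Early against late, it became 15 with array weights (36.4%), 2 with an intensity trend (12%), 3 with the mean of a gene's passing probe sets (11.1%) and 1 without probe sets marked as shared (11.3%). Leaving out early 3 and late 1 together, an alternative chosen after seeing the data, gave 4 in early against control (Col14a1 and Eln lower, Lum and Postn higher; 24.6%), 1 in late against control (Eln; 0.897%) and 16 in early against late (32.1%). Leaving out 1 array gave 0 to 1 in early against control, 0 to 1 in late against control and 0 to 13 in early against late, each highest without early 3. Without early 3, 18.1% of all genes were called in early against control, 0.608% in late against control and 30.5% in early against late. The cause of these changes was not tested.

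The medians ranged over single left-out arrays from -0.24 to 0.07 in early against control, from -0.85 (without late 2) to -0.47 (without late 1) in late against control and from 0.30 (without late 1) to 0.68 (without early 3) in early against late. With the replicate number as a block, 0, 0 and 0 matrix genes were called, so the block changed no call among them. Of all genes, 62, 5 and 1114 were called. With 3 arrays per group the precision of every comparison is limited, and probe sets near the floor of 5 carry the least signal over background.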
